A study of Mus musculus with 6 samples.

Results

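The genes of glucose uptake, glycolysis, lactate export, pyruvate dehydrogenase control and the pentose phosphate pathway, 37 genes chosen by symbol, were followed in RNA-seq libraries labelled as mouse heart. All 37 were among the 27482 gene symbols of the count table. Of these, 34 reached the count minimum that 14663 genes reached in all. Slc2a3, Slc2a4 and Pgam2 lay under it and were not tested.

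Glucose enters cells through GLUT transporters and is trapped by hexokinase as glucose 6-phosphate. Glycolysis then turns glucose 6-phosphate into pyruvate with a gain of ATP, and lactate dehydrogenase and the monocarboxylate transporters dispose of pyruvate as lactate. Pyruvate dehydrogenase kinases (PDKs) hold back the entry of pyruvate into mitochondria. The pentose phosphate pathway branches off at glucose 6-phosphate, yields NADPH for antioxidant defence in its oxidative arm and recycles pentoses to glycolysis in its non-oxidative arm. Most steps are served by several genes whose products catalyse the same reaction (isoforms), and isoform use differs between tissues. The heart relies mainly on fatty acids and leans more on glucose when oxygen is short, and several genes of glucose uptake and glycolysis are known targets of the hypoxia factor HIF-1, which the title of the study names.

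Per the labels, the 3 AAV9-hFNDC4 libraries came from hearts of mice given an adeno-associated virus of serotype 9 for FNDC4 overexpression. The 3 AAV9-CTRL libraries came from hearts of mice given a control AAV9. All mice were male per the title, all underwent ischemia/reperfusion (I/R), in which blood flow to the heart is blocked and restored, and tissue was taken 24 h later. Neither the promoter of the vectors nor the strain or age of the mice is stated in the labels, and Fndc4 itself was not analysed here. Whether each library is a separate animal is not labelled. The p-values set the difference between groups against the spread of libraries within a group, and that spread may be only technical.

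Total counts were 34419687 to 35149915 in AAV9-hFNDC4 and 32975817 to 36074046 in AAV9-CTRL, and the 37 genes took 0.946% to 1.25% of them. The label "heart" was checked against marker genes. Only 3 of 15 cardiomyocyte markers averaged at least 1 CPM (counts scaled by library size), with a summed level of 45.2 to 46.6 CPM in AAV9-hFNDC4 and 58.3 to 59.1 in AAV9-CTRL. Tnnt2 alone averaged 38.1 and 51.7 CPM of these sums. Myh6, Actc1, Tnni3 and Myl2 averaged 0.277, 0.0992, 0.179 and 0.499 CPM, and Myl7, Pln and Nkx2-5 were at 0 in every library. This list did not bear out the label, and the labels do not explain it. All levels and group differences below carry this limit, among them those of heart and muscle isoforms. Of 8 fibroblast markers, 4 averaged at least 1 CPM, with a summed level of 2615 to 3173 CPM against 1784 to 2227. Of these, Col1a2, Col3a1 and Pdgfra were higher in AAV9-hFNDC4. The other 4, Dcn, Lum, Tcf21 and Postn, averaged 0.0423, 0.00499, 0.00499 and 0.122 CPM. Postn had 3 counts in AAV9-hFNDC4 against 22 in AAV9-CTRL, so the list as a whole did not move together. Endothelial, leukocyte, erythroid and skeletal muscle markers summed to at most 5.59, 16.4, 5.26 and 7.87 CPM in any library. The part of these marker differences in the results that follow was not tested. In bulk tissue, fewer cells of a type and less RNA per cell cannot be told apart.

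Of the 34 tested genes, 7 were higher in AAV9-hFNDC4, 6 were lower and 21 did not pass the test (edgeR quasi-likelihood test, adjusted p below 0.05 over all genes tested). The 7 higher genes were Slc2a1, Hk1, Hk2, Pfkfb2, Eno2, Slc16a3 and Pdk1. The 6 lower genes were Bpgm, Eno3, G6pdx, Pgd, Tkt and Taldo1. Over all genes tested, 22.1% were higher and 25.0% lower, so the shares among the tested members, 20.6% and 17.6%, were near or under the background. In either direction 38.2% of tested members passed, against 47.1% of all genes, and in 41.2% the groups did not overlap, against 56.6% of all genes. The median log2 fold change was -0.10 over the tested members and 0.01 over all genes tested. Among uptake and hexokinase genes, 3 of 4 tested were higher and 0 lower. Among the enzymes from glucose 6-phosphate to pyruvate and lactate, 14 of 16 did not pass, and the other two were enolase isoforms that went opposite ways. All 4 pentose phosphate genes were lower.

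**Figure D1:**
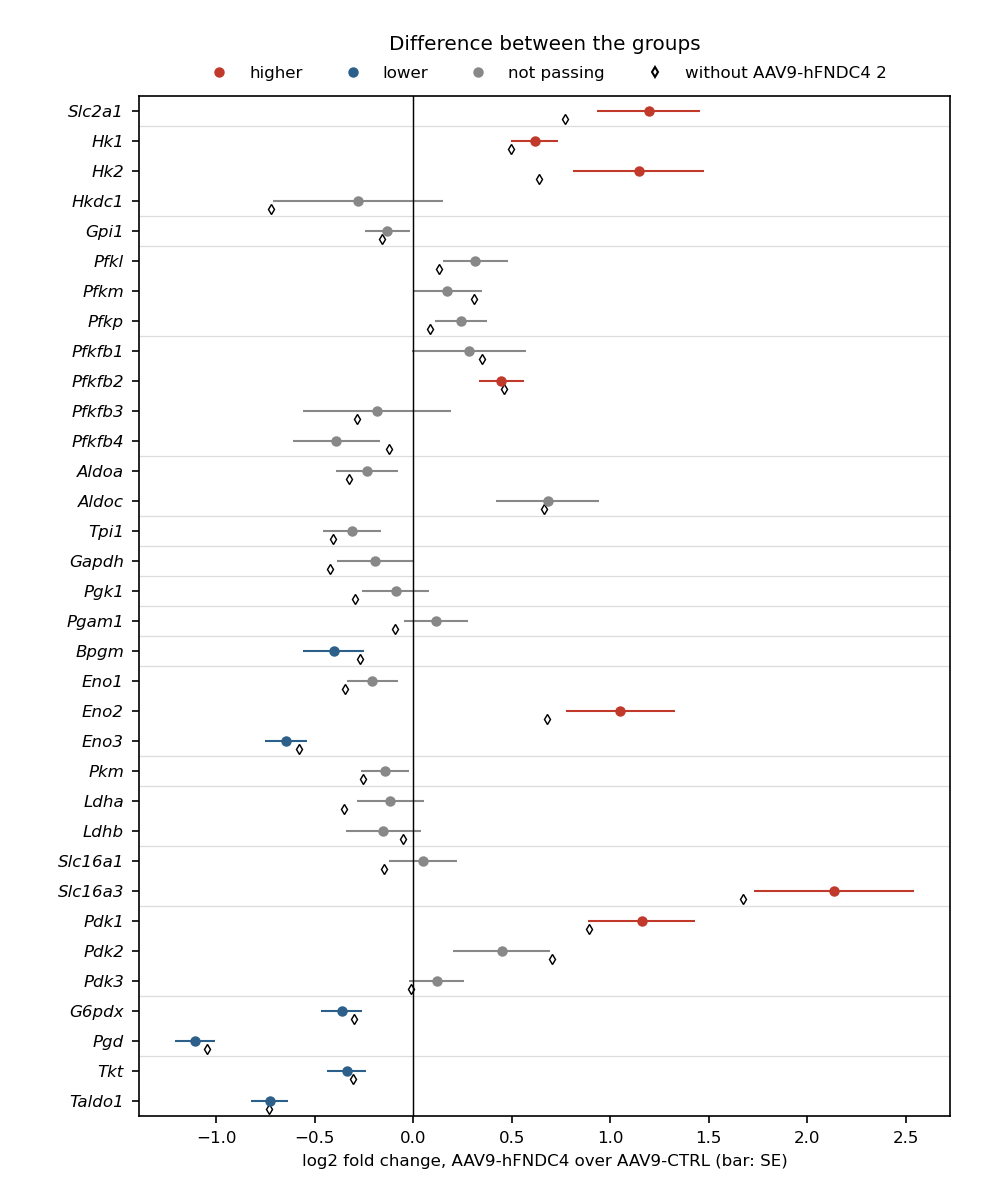
Log2 fold change of AAV9-hFNDC4 over AAV9-CTRL for the 34 tested genes, in pathway order with lines between steps; bars are the SE, filled points are coloured by the edgeR call, and open diamonds give the value without AAV9-hFNDC4 replicate 2. Slc16a3 lies highest at 2.13 and Pgd lowest at -1.11, and the 4 pentose phosphate genes at the bottom all lie left of 0.

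Promoter sequence was read for the 4 called members with the largest absolute log2 fold change at a mean of at least 10 CPM. Direction played no part in this choice, and 3 of them were higher and 1 lower. Shown are the 250 bases before the RefSeq start site on GRCm38.p6, 5′ to 3′ on the gene's strand. Capitals mark ACGTG on either strand (CACGT where it lies on the other strand). ACGTG is a form of the core of the element that HIF-1 and several other transcription factors bind. Another form, GCGTG, was not searched and is not counted below. Slc2a1, the glucose transporter GLUT1, is read from chr4:119108495-119108744 (plus strand), Pdk1, a pyruvate dehydrogenase kinase, from chr2:71872974-71873223 (plus strand), Hk2, hexokinase 2, from chr6:82774455-82774704 (minus strand), and Pgd, 6-phosphogluconate dehydrogenase, from chr4:149166706-149166955 (minus strand).
Slc2a1: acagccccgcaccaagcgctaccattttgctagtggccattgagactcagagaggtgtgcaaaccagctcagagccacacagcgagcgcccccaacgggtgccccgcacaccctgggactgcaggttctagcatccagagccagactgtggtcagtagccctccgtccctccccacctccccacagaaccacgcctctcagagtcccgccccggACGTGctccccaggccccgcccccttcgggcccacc
Pdk1: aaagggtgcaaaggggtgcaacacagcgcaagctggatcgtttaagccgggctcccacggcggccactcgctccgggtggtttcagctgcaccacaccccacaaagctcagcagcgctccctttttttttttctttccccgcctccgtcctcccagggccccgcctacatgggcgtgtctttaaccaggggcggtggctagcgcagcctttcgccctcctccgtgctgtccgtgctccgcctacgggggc
Hk2: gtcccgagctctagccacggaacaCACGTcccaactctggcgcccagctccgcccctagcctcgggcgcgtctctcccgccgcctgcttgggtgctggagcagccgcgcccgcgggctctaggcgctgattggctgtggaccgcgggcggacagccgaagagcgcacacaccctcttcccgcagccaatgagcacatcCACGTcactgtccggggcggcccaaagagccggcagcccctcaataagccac
Pgd: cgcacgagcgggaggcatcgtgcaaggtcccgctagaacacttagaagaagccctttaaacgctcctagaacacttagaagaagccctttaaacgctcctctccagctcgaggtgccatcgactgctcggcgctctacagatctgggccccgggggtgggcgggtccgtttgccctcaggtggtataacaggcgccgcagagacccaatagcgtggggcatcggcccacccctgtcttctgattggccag
The Slc2a1 window holds 1 match, 36 bases before the start site, and the Hk2 window holds 2, at 226 and 52 bases. The Pdk1 and Pgd windows hold no ACGTG on either strand. GC content of the 4 windows was 66.4%, 64.0%, 69.6% and 60.4% in the order shown. Over all 32851 start-site windows of this length, 16.6% held the motif, and over the 11503 tested genes with a window, 24.3% held it in at least 1 window. Among the 35 members with a window, 14 (40.0%) held it. These were 4 of 7 higher members, 0 of 6 lower members and 10 of 21 that did not pass the test. Among those 10 were Ldha, with 3 matches in 1 window, and Pgk1, with 2. CACGTG, which holds ACGTG on both strands and is bound by other factors too, lay in 6.02% of windows. A match describes these letters and is not a site shown to be bound, and genes with several start sites have several windows.

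Of the glucose transporter genes, Slc2a1 had the highest level. It encodes GLUT1, which serves basal uptake (chromosome 4, 119108711 to 119137983, GRCm38). Its level was 77.9, 181 and 100.2 CPM in AAV9-hFNDC4 replicates 1 to 3 and 49.6, 55.4 and 52.0 CPM in AAV9-CTRL. The groups did not overlap, and AAV9-hFNDC4 replicate 2 stood far above the other libraries. Slc2a1 was 2.29-fold higher, with a log2 fold change of 1.19 (SE 0.26, adjusted p = 0.00463), and 0.77 without AAV9-hFNDC4 replicate 2, still past the threshold. Slc2a4 encodes GLUT4, the insulin-responsive transporter of heart and skeletal muscle, and had 2, 5 and 2 counts in AAV9-hFNDC4 and 6, 7 and 2 in AAV9-CTRL. Slc2a3 encodes GLUT3, a high-affinity transporter of neurons, and had 0, 4 and 5 counts against 7, 5 and 4. At these counts no difference in Slc2a3 or Slc2a4 was detectable, and Slc2a1 made up 99.3% to 99.9% of the length-scaled signal of these 3 genes. With 6 further GLUT genes of the table added, its share was 72.8% ± 9.46 (SD, n = 3) in AAV9-hFNDC4 and 62.4% ± 1.97 in AAV9-CTRL. Slc2a8, a transporter of internal membranes, held 19.7% ± 7.03 and 27.4% ± 3.24, and the urate and sugar transporter Slc2a9 held 7.21% ± 2.57 and 9.56% ± 1.93. Neither Slc2a8 (log2 0.33, adjusted p = 0.119) nor Slc2a9 (log2 0.42, adjusted p = 0.0717) passed the test.

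Both main hexokinase genes were higher as well. Hk1 (chromosome 10, 62268855 to 62379908), the broadly expressed form, measured 187, 252 and 209 CPM in AAV9-hFNDC4 and 142, 146 and 134 CPM in AAV9-CTRL. The groups were apart in every library, and Hk1 was 1.53-fold higher (log2 0.62, SE 0.12, adjusted p = 0.00145), a call kept under all 15 alternatives tried. Hk2 (chromosome 6, 82725025 to 82774454), the insulin-responsive form of muscle, measured 84.6, 222 and 111 CPM against 70.1, 44.0 and 75.0 CPM. Here too the groups did not overlap, but the gap between the lowest AAV9-hFNDC4 and the highest AAV9-CTRL library was small. Hk2 was 2.21-fold higher (log2 1.14, SE 0.33, adjusted p = 0.0183). The log2 value was 0.64 without AAV9-hFNDC4 replicate 2, and the call was lost without AAV9-CTRL replicate 2 (0.94, adjusted p = 0.0950), with a correction for transcript length (0.95, adjusted p = 0.0558) and with no filter on low counts (1.16, adjusted p = 0.181). Hkdc1, a hexokinase-like gene, measured 0.588 to 1.63 CPM and did not pass (log2 -0.28, SE 0.43, adjusted p = 0.617). Scaled by transcript length, Hk1 made up 65.4% ± 7.97 (SD, n = 3) of the hexokinase signal in AAV9-hFNDC4 and 71.6% ± 6.26 in AAV9-CTRL, and Hk2 34.1% ± 7.89 and 27.5% ± 6.21. The Hk2 to Hk1 ratio overlapped between the groups (difference 0.45 on the log2 scale, two-sided exact permutation p = 0.5).

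**Figure D2:**
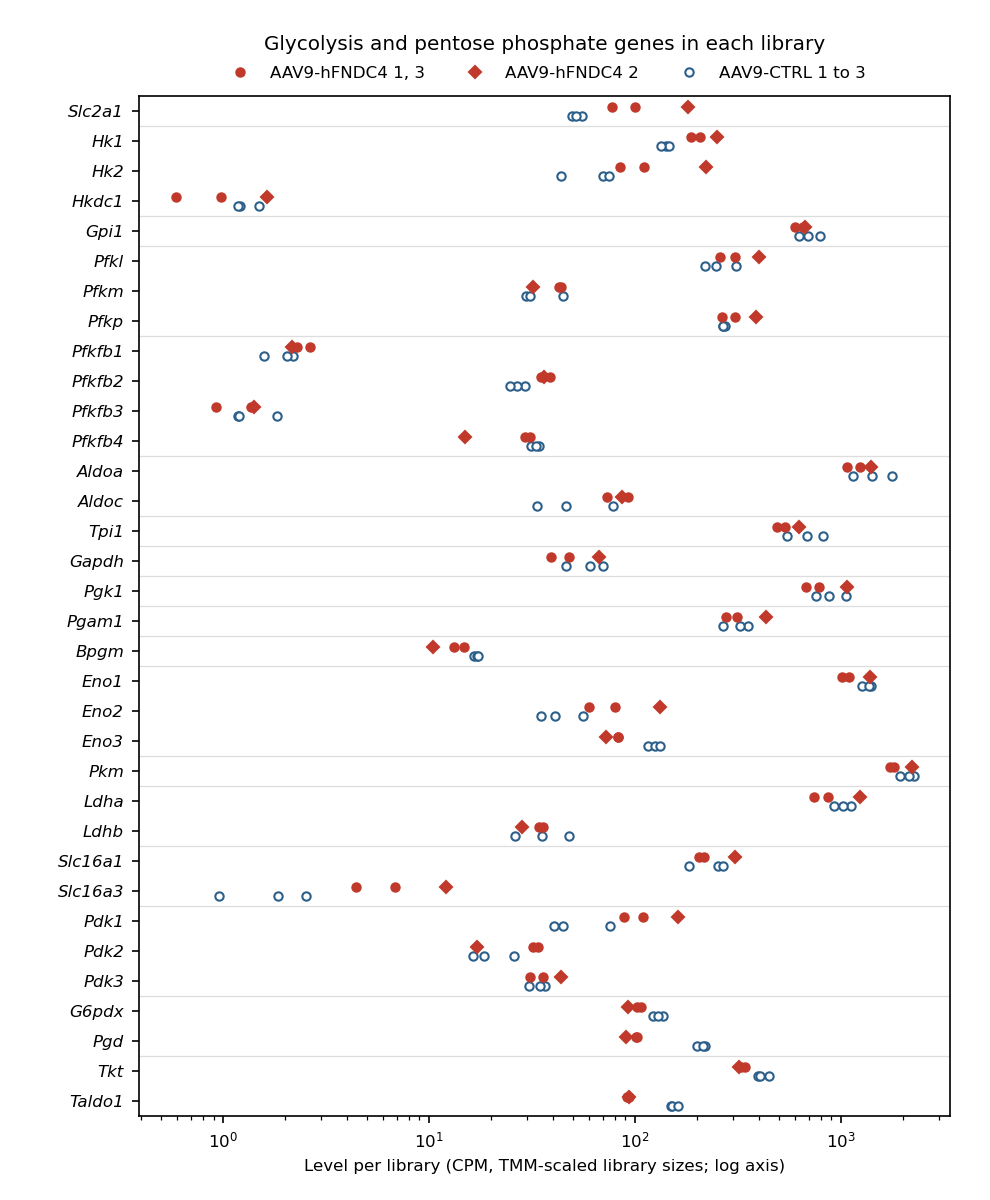
Level in each library, in CPM on a log axis, of the 34 tested genes in pathway order; filled red symbols are AAV9-hFNDC4 (the diamond is replicate 2) and open blue circles AAV9-CTRL. Red symbols lie wholly to the right of blue for Slc2a1, Hk1, Hk2, Pfkfb2, Eno2, Slc16a3 and Pdk1, and wholly to the left for Pfkfb4, Bpgm, Eno3 and the 4 pentose phosphate genes.

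Glucose 6-phosphate isomerase and phosphofructokinase did not pass the test. Gpi1, which makes fructose 6-phosphate, had a log2 fold change of -0.13 (SE 0.11, adjusted p = 0.361). Phosphofructokinase commits sugar to glycolysis, and its liver (Pfkl), muscle (Pfkm) and platelet (Pfkp) subunits were all present. Pfkl measured 260.2, 400.4 and 305 CPM in AAV9-hFNDC4 and 218, 310.5 and 248 CPM in AAV9-CTRL, so that the groups overlapped (log2 0.31, SE 0.17, adjusted p = 0.141). Without AAV9-CTRL replicate 2, Pfkl (0.47) and Pfkm (0.39) passed the threshold. Pfkm, the subunit typical of heart and skeletal muscle, was the smallest part of the family, at 7.89% ± 2.45 (SD, n = 3) of its length-scaled signal in AAV9-hFNDC4 and 8.07% ± 1.02 in AAV9-CTRL. Pfkl held 49.4% and 47.9%, and Pfkp 42.7% and 44.0%. None of the 3 ratios among these subunits separated the groups.

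The PFKFB enzymes make and break fructose 2,6-bisphosphate, the main activator of phosphofructokinase, and their members behaved differently from each other. Pfkfb2 (chromosome 1, 130689182 to 130729253), the form best known from heart, measured 35.0, 36.4 and 38.9 CPM in AAV9-hFNDC4 and 29.4, 26.7 and 24.7 CPM in AAV9-CTRL. Its groups did not overlap and it was 1.36-fold higher (log2 0.45, SE 0.12, adjusted p = 0.00757), a call kept under all 15 alternatives. In the annotation 27.8% of its exon bases also belong to other genes. Pfkfb4 measured 29.4, 14.9 and 31.0 CPM against 34.4, 31.2 and 33.2 CPM. All its AAV9-hFNDC4 libraries lay below those of AAV9-CTRL, but 2 of them only narrowly, and the difference did not pass (log2 -0.39, SE 0.22, adjusted p = 0.168, and -0.12 without AAV9-hFNDC4 replicate 2). Pfkfb1 and Pfkfb3 lay at 0.923 to 2.64 CPM and did not pass. By length-scaled signal Pfkfb4 was the main PFKFB transcript in AAV9-CTRL (59.0% ± 2.30, SD, n = 3) and Pfkfb2 the second (33.5% ± 1.38). In AAV9-hFNDC4 the shares were 44.2% ± 9.41 and 46.9% ± 8.27. The shares of both genes separated the groups.

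Bpgm makes and breaks 2,3-bisphosphoglycerate, the red-cell regulator of oxygen release, on a side branch of glycolysis (chromosome 6, 34476207 to 34505613). It measured 14.8, 10.5 and 13.3 CPM in AAV9-hFNDC4 and 16.6, 17.1 and 17.4 CPM in AAV9-CTRL. The groups did not overlap, and it was 1.32-fold lower (log2 -0.40, SE 0.15, adjusted p = 0.0482). The call held in 5 of 15 alternatives. It was lost on leaving out AAV9-hFNDC4 replicate 2 or 3 or any AAV9-CTRL library, with adjusted p up to 0.153. The other losses included upper-quartile scaling, no filter on low counts and, with the largest adjusted p, a correction for transcript length (-0.23, adjusted p = 0.235).

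The most abundant transcripts were those of glycolysis below phosphofructokinase, and for each of the 6 highest the groups overlapped. Per kilobase of exon and averaged over the 6 libraries, Pkm (pyruvate kinase) was highest at 778 CPM, followed by Aldoa (aldolase A) at 738, Ldha at 521, Eno1 at 494, Pgk1 (phosphoglycerate kinase) at 479 and Tpi1 (triose phosphate isomerase) at 350. Pkm measured 1729, 2217 and 1814 CPM in AAV9-hFNDC4 and 1952, 2261 and 2154 CPM in AAV9-CTRL, unscaled for length (log2 -0.14, SE 0.12, adjusted p = 0.359). Aldoa measured 1073, 1402 and 1238 CPM against 1154, 1785 and 1428 CPM (log2 -0.23, SE 0.16, adjusted p = 0.246). In both genes the groups overlapped and replicate 2 was the highest library of each group. Log2 fold changes of Tpi1 (-0.31), Gapdh (-0.19), Pgk1 (-0.09) and Pgam1 (0.11, phosphoglycerate mutase) were also short of the threshold, and those of Aldoa, Gapdh, Pgk1 and Pgam1 changed sign under at least 1 alternative. Aldoa and Tpi1 passed as lower without AAV9-CTRL replicate 1 (-0.35 and -0.42). The muscle mutase Pgam2 had 0 counts in each AAV9-hFNDC4 library and 1 in each AAV9-CTRL library.

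Gapdh stood low for a glycolytic enzyme, at 36.9 CPM per kilobase against 350 for Tpi1, its neighbour in the pathway. It had 11463 counts over the 6 libraries where Aldoa had 279999. The annotation holds 180 other transcripts with at least 90% identity to Gapdh, 170 of them pseudogenes, and how the authors counted reads that match several genes is not stated in the labels. The part of these copies in the Gapdh level was not tested, and the Gapdh values are uncertain. Eno1 has 7 such copies, including Eno1b with 75514 counts, and the copies numbered 13 for Ldha, 8 for Pkm, 6 for Aldoa, 4 for Pgk1 and 3 for Pgam1.

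Aldolase and enolase have tissue forms beside their main forms. Aldoc, the aldolase best known from brain, measured 73.3, 86.9 and 93.0 CPM in AAV9-hFNDC4 and 33.4, 78.4 and 46.1 CPM in AAV9-CTRL. Replicate 2 of AAV9-CTRL reached into the AAV9-hFNDC4 range, and the difference missed the threshold (log2 0.68, SE 0.26, adjusted p = 0.0565), although 11 of 15 alternatives passed it. It was 1.09 without AAV9-CTRL replicate 2. The ratio of Aldoc to Aldoa within a library did separate the groups, by 0.98 on the log2 scale (a 1.98-fold higher ratio in AAV9-hFNDC4).

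Enolase converts 2-phosphoglycerate to phosphoenolpyruvate, and its 3 genes are the ubiquitous Eno1, the neuronal Eno2 and the muscle form Eno3. Eno2 (chromosome 6, 124760053 to 124769673) measured 59.7, 133 and 80.3 CPM in AAV9-hFNDC4 and 34.9, 56.0 and 41.0 CPM in AAV9-CTRL. The lowest AAV9-hFNDC4 library lay just above the highest AAV9-CTRL library. Eno2 was 2.07-fold higher (log2 1.05, SE 0.28, adjusted p = 0.0116), and 0.68 on the log2 scale without AAV9-hFNDC4 replicate 2, still past the threshold. With no filter on low counts it missed the threshold (adjusted p = 0.0518). Eno3 (chromosome 11, 70657202 to 70662513) went the other way, with 83.2, 72.2 and 83.0 CPM against 116, 125 and 132 CPM. Its groups lay far apart relative to their spread, and it was 1.57-fold lower (log2 -0.65, SE 0.11, adjusted p = 0.000504). The call held under all 15 alternatives, at -0.32 with a correction for transcript length. Eno1 measured 1011 to 1390 CPM against 1266 to 1398 CPM and did not pass (log2 -0.21, SE 0.13, adjusted p = 0.205), but passed as lower without AAV9-hFNDC4 replicate 2 (-0.35). Adding the counts of Eno1b gave 1487 ± 252 CPM (SD, n = 3) against 1753 ± 106 CPM, which overlapped (two-sided exact permutation p = 0.2). Eno1 held 84.5% and 84.8% of the length-scaled enolase signal, while Eno2 held 5.85% ± 1.47 against 2.50% ± 0.511 and Eno3 9.60% ± 2.12 against 12.7% ± 0.457.

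Lactate dehydrogenase, the enzyme that interconverts pyruvate and lactate, did not pass the test in either form. Ldha measured 741, 1239 and 865 CPM in AAV9-hFNDC4 and 927, 1123 and 1033 CPM in AAV9-CTRL (log2 -0.12, SE 0.17, adjusted p = 0.598). The spread among AAV9-hFNDC4 libraries exceeded the difference between the groups. Ldhb, the form that dominates in adult heart muscle, measured only 26.2 to 47.9 CPM and held 5.09% ± 1.72 (SD, n = 3) of the length-scaled signal in AAV9-hFNDC4 and 4.85% ± 0.952 in AAV9-CTRL. The ratio of Ldhb to Ldha differed by 0.03 on the log2 scale.

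The lactate transporters differed more. Slc16a3 encodes MCT4, the lactate exporter of glycolytic cells (chromosome 11, 120948480 to 120960868). It measured 4.43, 12.1 and 6.84 CPM in AAV9-hFNDC4 and 0.955, 2.52 and 1.85 CPM in AAV9-CTRL. Every AAV9-hFNDC4 library lay above every AAV9-CTRL library, at a low level throughout. The 4.39-fold difference (log2 2.13, SE 0.41, adjusted p = 0.00132) was the largest among the tested members and held under all 15 alternatives. Slc16a1, which encodes the widely expressed MCT1, measured 205, 307 and 218 CPM against 255, 184 and 268 CPM and did not pass (log2 0.05, SE 0.17, adjusted p = 0.837). Slc16a1 kept 97.0% and 99.2% of the length-scaled signal of the pair, and the summed level of both genes was 1.06 times that of AAV9-CTRL. The within-library ratio of Slc16a3 to Slc16a1 was 4.15-fold higher in AAV9-hFNDC4, the largest difference among the 16 pairs compared.

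Of the 3 PDK genes among the members, only Pdk1 passed the test. Pdk1 (chromosome 2, 71873224 to 71903858) measured 88.5, 162 and 110.2 CPM in AAV9-hFNDC4 and 40.4, 76.2 and 44.8 CPM in AAV9-CTRL. The groups did not overlap, and replicate 2 was again the highest of each. Pdk1 was 2.23-fold higher (log2 1.16, SE 0.27, adjusted p = 0.00631), a call kept under all 15 alternatives. Pdk2, a widely expressed form, measured 33.8, 17.2 and 32.0 CPM against 16.4, 26.0 and 18.5 CPM, with replicate 2 of each group on the other side. It did not pass (log2 0.45, SE 0.25, adjusted p = 0.161) but did without AAV9-hFNDC4 replicate 2 (0.70, adjusted p = 0.00997). Pdk3 did not pass (log2 0.12, SE 0.14, adjusted p = 0.510). Pdk4, which is no member, was the most abundant PDK transcript per kilobase in AAV9-CTRL and was lower in AAV9-hFNDC4 (2.15-fold, log2 -1.11, SE 0.13, adjusted p = 8.74e-05). Over all 4 PDK genes, Pdk4 held 20.9% ± 4.80 (SD, n = 3) of the length-scaled signal in AAV9-hFNDC4 and 46.0% ± 3.66 in AAV9-CTRL, and Pdk1 held 34.3% ± 8.77 and 15.6% ± 3.45. With Pdk4 left out, Pdk3 held the largest length-scaled share in AAV9-CTRL (46.0% ± 5.37) and Pdk1 in AAV9-hFNDC4 (43.1% ± 8.30, against 28.7% ± 4.34). The ratio of Pdk3 to Pdk1 was 2.09-fold lower in AAV9-hFNDC4, without overlap.

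**Figure D3:**
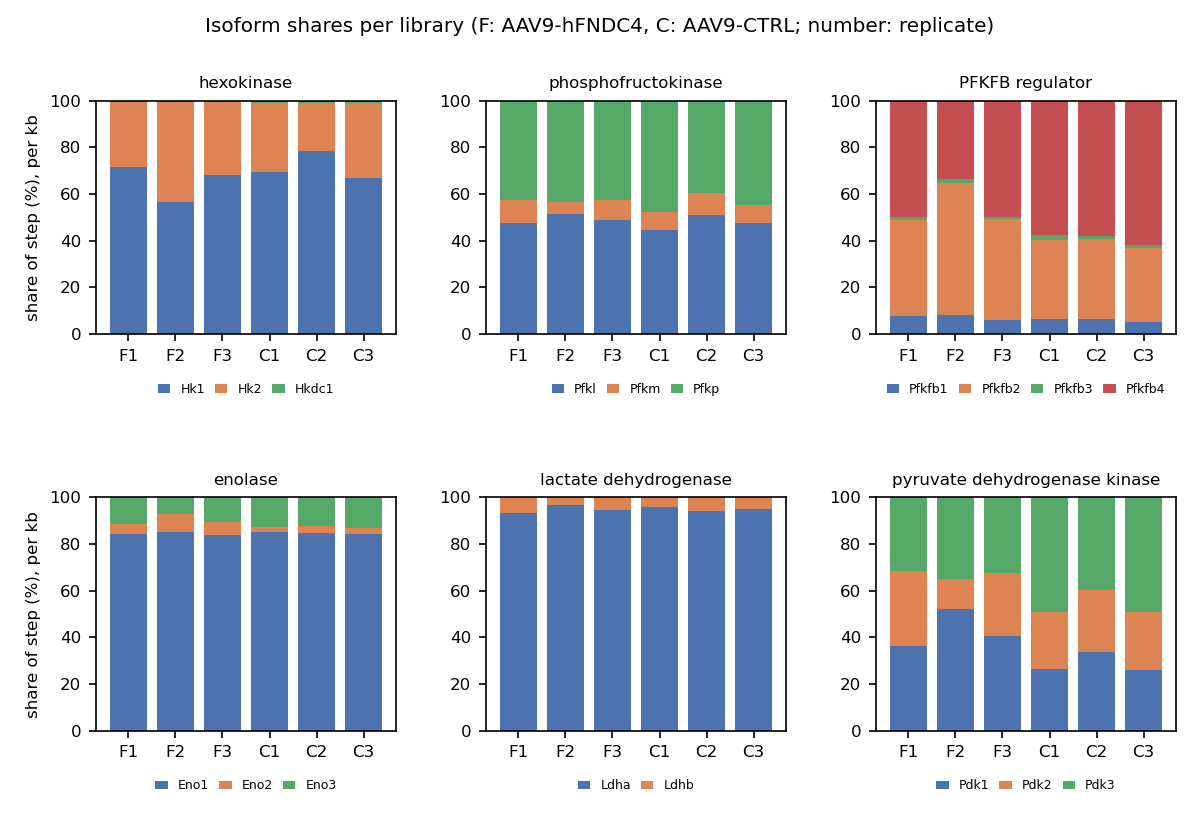
Share of each isoform in the length-scaled signal of its step (%, CPM per kilobase) in each library, F being AAV9-hFNDC4 and C AAV9-CTRL, followed by the replicate number. Among the 3 PDK genes plotted, which leave out Pdk4, Pdk1 takes 36.5% to 52.4% in AAV9-hFNDC4 and 26.0% to 33.7% in AAV9-CTRL, while the shares of Pfkl and Ldha overlap between the groups.

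The pentose phosphate genes were lower together, with little spread within groups. G6pdx encodes glucose 6-phosphate dehydrogenase, the entry enzyme of the oxidative arm (chromosome X, 74409483 to 74429194). It measured 107, 92.8 and 103 CPM in AAV9-hFNDC4 and 138, 122 and 129.8 CPM in AAV9-CTRL. The groups did not overlap, and it was 1.29-fold lower (log2 -0.36, SE 0.10, adjusted p = 0.0125). The call was lost without AAV9-CTRL replicate 1 (-0.29, adjusted p = 0.0622) and with a correction for transcript length (-0.24, adjusted p = 0.0749). Pgd, the 6-phosphogluconate dehydrogenase of the second NADPH-yielding step (chromosome 4, 149149991 to 149166771), measured 103, 91.0 and 101 CPM against 220.5, 201 and 214 CPM. No library came near the other group. Pgd was 2.15-fold lower (log2 -1.11, SE 0.10, adjusted p = 1.88e-05), the smallest p among the members, and the call held under all 15 alternatives.

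The non-oxidative arm followed. Taldo1 encodes transaldolase (chromosome 7, 141392199 to 141402968) and measured 93.6, 93.8 and 91.7 CPM in AAV9-hFNDC4 and 149.8, 151 and 162 CPM in AAV9-CTRL. The groups were far apart, and it was 1.66-fold lower (log2 -0.73, SE 0.09, adjusted p = 0.000129), or -0.35 with a correction for transcript length, past the threshold in all 15 alternatives. Tkt encodes transketolase (chromosome 14, 30548359 to 30574720) and measured 341, 319 and 330.0 CPM against 396, 407 and 449 CPM. The groups did not overlap, and it was 1.26-fold lower (log2 -0.34, SE 0.10, adjusted p = 0.0153). This smaller difference lost the threshold without AAV9-hFNDC4 replicate 2 or 3 or AAV9-CTRL replicate 3, with adjusted p of 0.0502, 0.0675 and 0.0788.

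Isoform use was compared within libraries by the log2 ratio of counts, each raised by 1, which needs no scaling of the library. Of 19 pairs, 16 had both genes tested, and the ratios of 7 (43.8%) did not overlap between the groups. Over every pair of the 14663 tested genes, 53.8% did not overlap, so the members' share was under the background. The 7 pairs were Slc16a3 to Slc16a1, Eno2 to Eno1, Aldoc to Aldoa and Pfkfb2 to Pfkfb3, with higher ratios in AAV9-hFNDC4, and Pdk3 to Pdk1, Hkdc1 to Hk1 and Eno3 to Eno1, with lower ratios. Eno2 to Eno1 averaged -3.75 ± 0.349 (SD, n = 3) on the log2 scale in AAV9-hFNDC4 and -4.96 ± 0.285 in AAV9-CTRL, a 2.32-fold higher ratio. Eno3 to Eno1 averaged -3.87 ± 0.353 against -3.44 ± 0.0530, a 1.35-fold lower ratio. With 3 libraries against 3, the two-sided exact permutation test cannot give a p under 0.1, and no pair passed after Benjamini-Hochberg adjustment over the 16 pairs (smallest 0.229).

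**Figure D4:**
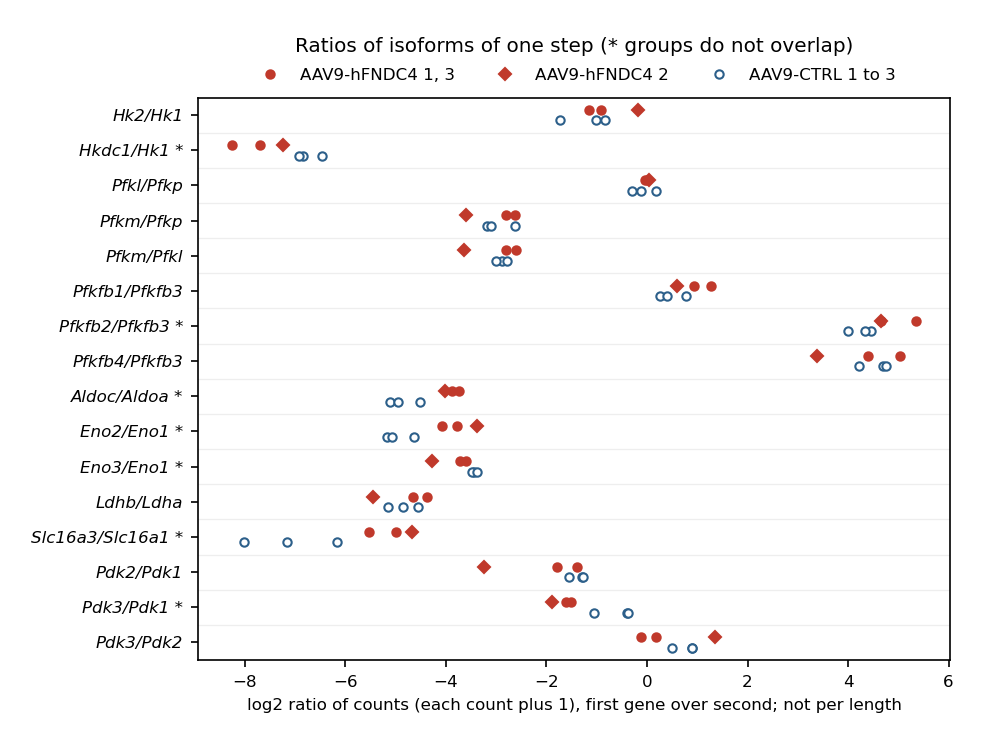
Log2 ratio of counts (each plus 1, not scaled by length) of 16 isoform pairs in each library; filled red symbols are AAV9-hFNDC4 (the diamond is replicate 2), open blue circles AAV9-CTRL, and an asterisk marks the 7 pairs whose groups do not overlap. Slc16a3 to Slc16a1 shows the widest gap, with means of -5.06 and -7.11, while the Hk2 to Hk1 and phosphofructokinase ratios overlap.

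Counts were also summed over the members of each of 12 steps with several genes. In 5 steps (41.7%) the groups did not overlap, against 56.6% of single genes tested, so the share was under the background. The 3 transporter genes summed to 120.0 ± 54.5 CPM (SD, n = 3) in AAV9-hFNDC4 and 52.6 ± 2.96 CPM in AAV9-CTRL. Hexokinases summed to 356 ± 107 CPM against 205 ± 11.8 CPM, and the 3 PDK members to 185 ± 34.9 CPM against 108 ± 27.1 CPM. With Pdk4 added, the PDK sum was 208, 261 and 229.5 CPM in AAV9-hFNDC4 and 187, 249 and 200.5 CPM in AAV9-CTRL, which overlapped (two-sided exact permutation p = 0.4). The oxidative pentose phosphate genes summed to 199 ± 13.7 CPM against 342 ± 17.3 CPM, a ratio of 0.583, and the non-oxidative genes to 423 ± 11.0 CPM against 571.5 ± 34.4 CPM, a ratio of 0.741. Each of these 5 member sums had a two-sided exact permutation p of 0.1, or 0.24 after adjustment over 12 steps. Phosphofructokinase (1.21 times AAV9-CTRL), PFKFB enzymes (1.03), aldolase (0.877), phosphoglycerate mutase (1.08), enolase (0.882), lactate dehydrogenase (0.922) and lactate transport (1.06) overlapped. Without AAV9-hFNDC4 replicate 2, 8 of the 12 steps (66.7%) did not overlap, against 66.0% of single genes in the same libraries.

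Replicate 2 stood apart in both groups. AAV9-hFNDC4 replicate 2 was the highest of its group in 22 of the 34 tested members (64.7%), against 43.7% of all genes tested, and the lowest in 10. AAV9-CTRL replicate 2 was the highest in 21 (61.8%), against 39.4% of all genes. Replicate 1 was the lowest of its group in 22 members in AAV9-hFNDC4 and in 24 in AAV9-CTRL. The lowest library was not counted over all genes, so whether this is particular to the members was not tested. With both replicate 2 libraries left out, an alternative chosen after seeing the data, 11 members were higher in place of 7, while over all genes 3755 of 14913 were higher in place of 3240 of 14663. Slc16a1 then turned to -0.30 (adjusted p = 0.0139).

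Around the pathway, 8 lists of related genes were read from the same fit, in which 22.1% of all genes were higher and 25.0% lower. Of the glycogen genes, 9 of 15 were higher and 2 lower (median log2 fold change 0.64, against 0.01 over all genes). Gys1, the glycogen synthase of muscle, measured 182, 300.3 and 219 CPM in AAV9-hFNDC4 and 106, 123 and 108 CPM in AAV9-CTRL, without overlap (log2 1.06, SE 0.16, adjusted p = 0.000334). Gyg, the glycogenin primer, rose by 0.64 (SE 0.11, adjusted p = 0.000586), while Pgm2, a phosphoglucomutase, fell by 0.69 (SE 0.12, adjusted p = 0.000715).

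In the rest of the pentose phosphate list, 4 of 8 tested genes were lower and 1 higher (median -0.29), against 25.0% and 22.1% of all genes tested. Pgls, which acts between G6pdx and Pgd, measured 62.9 ± 1.73 CPM (SD, n = 3) against 98.7 ± 17.7 CPM (log2 -0.65, SE 0.13, adjusted p = 0.00199). Rpia, a ribose 5-phosphate isomerase, was lower by 0.52 on the log2 scale in the same direction as Tkt and Taldo1, at 41.3 ± 1.17 CPM against 59.4 ± 6.80 CPM (adjusted p = 0.00303). With a correction for transcript length, Pgls and Rpia missed the threshold. Tigar, a phosphatase that lowers fructose 2,6-bisphosphate, measured 12.2 ± 0.959 CPM against 23.6 ± 7.49 CPM (log2 -0.95, SE 0.21, adjusted p = 0.00342). H6pd went the other way. It encodes the glucose 6-phosphate dehydrogenase of the endoplasmic reticulum and measured 90.9, 76.6 and 93.9 CPM against 40.8, 45.0 and 38.6 CPM (log2 1.07, SE 0.12, adjusted p = 4.93e-05), opposite to the cytosolic G6pdx.

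At pyruvate entry into mitochondria, 3 of 11 genes were higher and 4 lower (median -0.23), against 22.1% and 25.0% of all genes tested. Pdk4, the PDK induced by fasting and fatty acids, measured 54.9, 38.6 and 51.3 CPM in AAV9-hFNDC4 and 99.3, 109.6 and 103 CPM in AAV9-CTRL. These groups were apart, and Pdk4 was lower where Pdk1 was higher. Pcx, pyruvate carboxylase, measured 57.3 ± 9.56 CPM (SD, n = 3) against 29.4 ± 6.72 CPM (log2 0.96, SE 0.17, adjusted p = 0.000804). Mpc2, a subunit of the mitochondrial pyruvate carrier, measured 17.5 ± 0.832 CPM against 29.8 ± 3.68 CPM (log2 -0.77, SE 0.13, adjusted p = 0.000576). Pdhb, a subunit of pyruvate dehydrogenase, was lower too (log2 -0.45, SE 0.11, adjusted p = 0.00535), but not with a correction for transcript length (-0.11).

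Of 5 tested gluconeogenesis genes, 1 was higher and 2 lower (median -0.24, unchanged with Pck1 at its bound), against 22.1% and 25.0% of all genes. Pck1, the cytosolic phosphoenolpyruvate carboxykinase, had 0 counts in AAV9-hFNDC4 and 187 over the 3 AAV9-CTRL libraries, which is at least 69.2-fold lower if the group is set to the 3 counts that a total of 0 allows. G6pc, a glucose 6-phosphatase best known from liver, had 5 counts against 163. The mitochondrial Pck2 rose, from 161 ± 19.9 CPM (SD, n = 3) to 275 ± 17.3 CPM (log2 0.78, SE 0.11, adjusted p = 0.000272). Of the other isozymes and transporters of the pathway, 18 of 20 were in the count table and 7 passed the count minimum. Ldhd, the D-lactate dehydrogenase, was the 1 that passed, at 19.3 ± 2.11 CPM against 13.1 ± 3.15 CPM (log2 0.56, SE 0.18, adjusted p = 0.0223), and it missed the threshold without AAV9-hFNDC4 replicate 1 or 3 or AAV9-CTRL replicate 1 or 3.

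**Figure D5:**
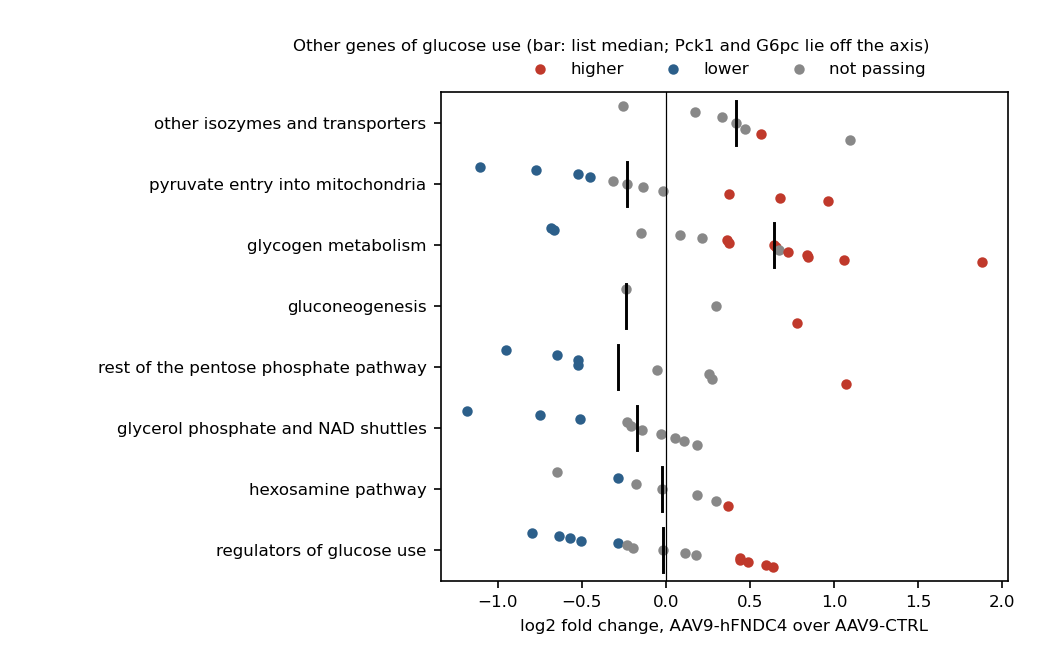
Log2 fold change of AAV9-hFNDC4 over AAV9-CTRL for the tested genes of 8 related lists, coloured by the edgeR call, with each list's median as a black bar. Glycogen genes have a median of 0.64 and the rest of the pentose phosphate pathway -0.29, and Pck1 and G6pc lie outside the plotted range.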

How the data were processed

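For the 6 libraries the authors deposited unnormalized read counts, 1 row for each gene symbol. Per the submitters' processing notes, fastp, HISAT2, HTSeq, DESeq2 and R 3.2.0 were used with build GRCm38 (mm10), in roles and with settings not given in the sources used here. Per the labels, TRIzol RNA went into a VAHTS Universal V6 library kit, and strand is not stated.

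The fit used edgeR 4.0.16 (R 4.3.3) with filterByExpr, TMM library sizes, robust dispersions and the quasi-likelihood F test between the groups. P-values were adjusted by Benjamini-Hochberg over all 14663 genes, with a threshold of 0.05. SE is the log2 fold change over the square root of F. CPM uses TMM library sizes, and levels per kilobase use the exon union of GENCODE vM21. Copies are other annotated transcripts with at least 90% identity over at least 200 bases. Positions are GENCODE's on GRCm38, and promoters come from RefSeq GRCm38.p6. The fit was tested on simulated counts with 200 changed genes among 14663. It recovered 79% of 2-fold and 36% of 1.5-fold changes, and 8.73% of its calls were false. In the data 47.1% of genes passed, a far larger share than was changed in the simulation. The adjusted p depends on that share, so these rates cannot be carried over to the data. A gene that did not pass may still differ.

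The members, gene lists and tests were chosen with earlier results of these data known. Named are all members, up to 4 genes per related list with the smallest p, and Hif1a. A gene that this rule names is not reported here. The 15 alternatives were RLE and upper-quartile scaling, no count filter, a filter of 1 CPM in 3 libraries, DESeq2 1.42.0, limma-voom (limma 3.58.1), the replicate number as a block, a length correction (loess, span 0.4), each library left out and, chosen after seeing the data, both replicate 2 libraries left out. Eno1b was likewise added to Eno1, and Pdk4 and other genes of the same step to the step sums, after seeing the data.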

Additional observations from a re-analysis of the deposited data

How the results depend on the processing

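Under the 15 alternatives, 7 to 9 members were higher and 4 to 7 lower, except that 11 were higher with both replicate 2 libraries left out, a choice made after seeing the data. Over all genes, the share called in either direction ranged from 30.0% to 53.5% under these alternatives. With the replicate number as a block, 8 members were higher and 4 lower, and over all genes 2663 and 3080, against 3240 and 3668 without it. The labels do not say whether the numbers pair the libraries. Deviations of same-numbered libraries from their group means correlated at -0.0779, -0.184 and -0.0494, which with so few libraries cannot settle it. The block lost the calls of Bpgm (adjusted p = 0.0851) and Tkt (0.0599) and gave Aldoc a call (0.0112). Leaving out 1 library gave 13 to 23 higher genes among the related lists (21 with all libraries), the 13 without AAV9-hFNDC4 replicate 3 or AAV9-CTRL replicate 3. Over all genes, higher calls fell too, to 2512 of 15189 and 2299 of 15131 in these settings, from 3240 of 14663. With 1 library left out, 5 to 8 of 12 steps did not overlap, against 59.5% to 68.5% of single genes. Adding genes of the same step that are not members left 4 such steps in place of 5. Testing without a count filter lost Hk2, Eno2 and Bpgm and gave calls to Pfkl, Pfkfb4, Aldoc, Tpi1 and Pdk2. No called member changed sign. Among uncalled genes, the length correction turned Aldoa to 0.031, Gapdh to 0.16, Pgk1 to 0.17, Ldha to 0.12, Ldhb to 0.26, Slc16a1 to -0.030 and G6pc3 to 0.081. Leaving out 1 library at a time gave log2 fold changes of -0.72 to 0.016 for Hkdc1, -0.29 to 0.081 for Pfkfb3, -0.30 to 0.053 for Pgk1, -0.092 to 0.25 for Pgam1, -0.35 to 0.040 for Ldha, -0.31 to 0.092 for Ldhb, -0.15 to 0.16 for Slc16a1 and -0.014 to 0.24 for Pdk3. Without both replicate 2 libraries, Pgam1 turned to -0.0065, Ldhb to 0.19, Slc16a1 to -0.30 and Gnpnat1 to -0.13. The cause of these shifts was not tested. Upper-quartile scaling gave 3603 higher and 3320 lower genes in all, and the unfiltered test 30.0% called among 25222 genes, against 47.1%. Slc2a3, Slc2a4 and Pgam2 had too few counts to test, at totals of 32975817 to 36074046 counts per library.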

Other observations

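Among 10 genes of the glycerol phosphate and NAD shuttles, which carry the reducing power of glycolysis into mitochondria, 3 were lower in AAV9-hFNDC4, 0 were higher and 7 did not pass (median log2 fold change -0.18). Over all genes tested, 25.0% were lower and 22.1% higher. Mdh2, the mitochondrial malate dehydrogenase, measured 288, 295 and 282 CPM in AAV9-hFNDC4 and 457, 500.3 and 496 CPM in AAV9-CTRL, without overlap (log2 -0.75, SE 0.10, adjusted p = 0.000126). The cytosolic Mdh1 measured 181 ± 17.7 CPM (SD, n = 3) against 257 ± 28.8 CPM (log2 -0.51, SE 0.12, adjusted p = 0.00408). Gpd1, the cytosolic glycerol 3-phosphate dehydrogenase, was low at 1.54 ± 0.980 CPM against 3.51 ± 0.383 CPM (log2 -1.18, SE 0.40, adjusted p = 0.0287) and missed the threshold without AAV9-hFNDC4 replicate 2 or 3 or AAV9-CTRL replicate 1 or 3. Of 7 genes of the hexosamine pathway, which makes the sugar donor for protein O-GlcNAc, Ogt, the O-GlcNAc transferase, was higher (log2 0.37, SE 0.11, adjusted p = 0.0154) and Uap1, which makes UDP-GlcNAc, lower (log2 -0.29, SE 0.10, adjusted p = 0.0287). Ogt missed the threshold without AAV9-hFNDC4 replicate 2 or 3, and Uap1 without any single library other than AAV9-CTRL replicate 2.

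Regulators of glucose use were split, with 5 of 15 tested genes higher and 5 lower (median -0.02), against 22.1% and 25.0% of all genes. Hif1a, the oxygen-regulated subunit of HIF-1, measured 215, 249 and 214 CPM in AAV9-hFNDC4 and 177, 147 and 159 CPM in AAV9-CTRL, without overlap (log2 0.49, SE 0.11, adjusted p = 0.00384). Its partner Arnt measured 83.7, 89.6 and 88.4 CPM against 63.2, 51.3 and 54.2 CPM, again without overlap (log2 0.63, SE 0.11, adjusted p = 0.000784). Lower were Akt1, a kinase of insulin signalling (log2 -0.57, SE 0.09, adjusted p = 0.000543), Foxk2, a forkhead factor linked to glycolysis (log2 -0.64, SE 0.10, adjusted p = 0.000455), and Esrra, a nuclear receptor of mitochondrial genes (log2 -0.79, SE 0.13, adjusted p = 0.000452). HIF-1 activity is set largely by the stability of its alpha subunit, which RNA counts do not show.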
